A study of Homo sapiens with 10 samples.

Results

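The comparison set the RNA of SK-hep1 cells that overexpressed PSPC1-Y523F together with PTK6 against that of SK-hep1 cells that overexpressed wild-type PSPC1 together with PTK6. It was chosen by sample label, as 2 of the 10 libraries of a series on PSPC1 and PTK6 in human hepatocellular carcinoma cell lines, with 1 library a side and all genes read. The other SK-hep1 libraries, 1 each, were mock control, PSPC1 and PSPC1-Y523F without added PTK6, and they served as the background against which both libraries were placed. The remaining libraries were of Mahlavu and Huh-7 cells.

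SK-hep1 is an established line labelled as hepatocellular carcinoma, and the study describes it as a line that expresses no PSPC1 and little PTK6. Both groups carried the PSPC1 cDNA from an expression plasmid, and the Y523F mutant, labelled as the YF mutation, carried phenylalanine in place of a tyrosine that the study examined as a target of PTK6. The cells were plasmid transfectants. The methods mention stable clones under drug selection for animal work and do not say whether the sequenced cells were clones or pools, so a difference between the libraries cannot be told apart from a difference between 2 isolates of transfected cells. Of the 11 hepatocyte markers listed, ALB, TTR, TF, FGB and APOB had 0 reads in both libraries and only SERPINA1 reached the level for comparison, at 41.8 FPKM with PSPC1/PTK6 and 34.7 with PSPC1-Y523F/PTK6. The keratin genes KRT8 and KRT18 and the mesenchymal gene VIM were abundant in both. Blood and immune markers were near 0 except CD14, which was at 9.28 and 19.8 FPKM.

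PSPC1 is an RNA-binding protein of the DBHS family, with SFPQ and NONO, and a component of paraspeckles, nuclear bodies built on the long noncoding RNA NEAT1. PTK6 is a cytoplasmic and nuclear tyrosine kinase of the BRK family, and its role in tumour cells is known to differ with its place in the cell. The question was how the expression program of the cells differs once PSPC1 lacks this tyrosine while PTK6 is present. Interferon-stimulated genes are switched on by interferon-activated transcription factors at a promoter element called ISRE, and many chemokine and cytokine genes are switched on by NF-kB at kB elements.

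Values are quantile-normalized FPKM, reads per gene scaled for gene length and library and brought to 1 common distribution over the 8 libraries with counts. A difference is log2 of the value plus 1 with PSPC1-Y523F/PTK6 minus the same with PSPC1/PTK6. Genes that averaged 1 FPKM or more in the pair were compared, and a gene was counted as higher or lower from 2-fold on. With 1 library a side there is no replicate check and no test, and the statements below hold for these libraries. Values in 5 libraries are given in the order mock, PSPC1, PSPC1-Y523F, PSPC1/PTK6 and PSPC1-Y523F/PTK6. The SK-hep1 libraries held 20222367 to 24278662 reads on genes, and reads fell on 21544 genes with PSPC1/PTK6 and on 19497 to 19862 in the other 4. Reads carried no molecular identifiers, so the intervals below cover counting error only.

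Of 12429 genes compared, 418 (3.36%) were 2-fold or more higher with PSPC1-Y523F/PTK6 and 447 (3.6%) lower, 6.96% in either direction. At 4-fold the counts were 64 higher and 81 lower. The median difference was 0.00 on the log2 scale and the interquartile range was -0.32 to 0.32. Across genes the difference had a Spearman's rho of 0.30 with GC content and 0.01 with gene length, and the part of GC content in the results was not tested. With both removed, 355 genes were higher and 467 lower. The split rested on the normalization. In FPKM as deposited the median of all genes was at -0.29, and 206 genes were higher and 1030 lower. The 100 genes with the most reads took 21.5% of the reads with PSPC1/PTK6 and 25.3% with PSPC1-Y523F/PTK6.

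The overexpressed genes themselves were not at 1 level in both libraries. PSPC1 (chr13:19674752-19783019) was at 0 reads in mock, and at 8.45, 3.03, 25.6 and 75.7 FPKM in the other 4 libraries in order. The mutant transcript with PTK6 was therefore 1.53 higher on the log2 scale than the wild-type transcript with PTK6, from 2539 against 930 reads, while without PTK6 the mutant was the lower of the pair, with 71 against 209 reads. PTK6 was at 5.67, 6.98, 5.39, 15.5 and 12.9 FPKM, so both libraries labelled with PTK6 lay above the 3 others, and they differed by -0.25. The part of the unequal PSPC1 level in the differences below was not tested.

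The clearest feature of the comparison was a lower level of interferon-stimulated genes with PSPC1-Y523F/PTK6. Of 64 compared, 60 were lower in any degree, against 50.1% of all genes, and 29 were at least 2-fold lower against the 3.6% of all genes, while 0 passed 2-fold upward. Their median difference was -0.83. IFI27, a small mitochondrial membrane protein gene strongly induced by type I interferon, was at 4.24, 2.24, 1.85, 262 and 13.7 FPKM. ISG15, which encodes a ubiquitin-like protein joined to target proteins in the antiviral response, was at 185, 146, 77.2, 1151 and 232 FPKM. IFIT3, a partner of IFIT1 in binding viral RNA, was at 34, 22.5, 16.2, 144 and 25.5 FPKM. In each of these genes the PSPC1/PTK6 library stood alone above the other 4, and the PSPC1-Y523F/PTK6 library lay far closer to the other 3. The differences were -4.16 for IFI27, -2.31 for ISG15 and -2.46 for IFIT3. Counting error was small beside them. Relative to the typical gene, IFI27 reads were 18.2-fold lower, with a 95% interval of 15.7 to 21.2 from 189 against 4213 reads (exact binomial).

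The upstream regions of these genes are printed because the list is defined in part by a shared promoter element. The sequences are RefSeq promoters of GRCh38.p14 that run from 250 bases before to 50 bases after the annotated start, on the plus strand, from chr1:1013247-1013546 for ISG15, chr10:89327747-89328046 for IFIT3 and chr14:94110486-94110785 for IFI27. Capitals mark matches on either strand to an ISRE-type motif, GAAA and GAAA with any 2 bases between, of which each region holds 2. Those of ISG15 overlap. IFIT3 and IFI27 have 2 annotated starts each, and the region at a single start is printed. The region printed for IFI27 lies inside the gene as the files place it.
ISG15: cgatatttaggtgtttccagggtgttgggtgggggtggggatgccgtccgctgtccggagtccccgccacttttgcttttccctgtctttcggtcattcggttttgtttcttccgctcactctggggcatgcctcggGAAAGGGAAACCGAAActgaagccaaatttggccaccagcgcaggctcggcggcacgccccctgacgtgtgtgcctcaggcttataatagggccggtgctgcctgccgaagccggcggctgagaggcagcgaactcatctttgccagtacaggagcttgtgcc
IFIT3: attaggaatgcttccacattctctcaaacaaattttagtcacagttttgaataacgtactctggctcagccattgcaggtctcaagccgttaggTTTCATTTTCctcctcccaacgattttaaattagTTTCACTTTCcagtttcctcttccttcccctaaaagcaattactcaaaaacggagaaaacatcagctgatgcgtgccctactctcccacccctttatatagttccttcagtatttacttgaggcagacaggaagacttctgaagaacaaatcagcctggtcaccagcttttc
IFI27: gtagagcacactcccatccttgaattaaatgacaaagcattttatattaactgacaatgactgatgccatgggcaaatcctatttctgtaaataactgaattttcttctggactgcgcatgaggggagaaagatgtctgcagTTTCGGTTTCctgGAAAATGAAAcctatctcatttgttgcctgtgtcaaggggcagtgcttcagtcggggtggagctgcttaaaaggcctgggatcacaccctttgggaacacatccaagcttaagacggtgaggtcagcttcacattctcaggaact

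At least 1 match was found at a promoter of 31 of the 49 interferon-stimulated genes with a RefSeq promoter, or 63.3%, against 3.85% of 9560 compared genes. Among the genes at least 2-fold lower, 34 of 297 held the motif, or 11.4%, and among those at least 2-fold higher 9 of 272, or 3.31%. The lower set holds members of the interferon list, which sets much of its share, so nothing is read from it. The share outside the lists was not computed. Outside the 3 immune lists used here, the 34 included, among others, IL24, POSTN, IFNL1, IFNL2, IFNL3 and CEACAM1. A match describes the letters and is not evidence of binding.

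Sensors and effectors of the interferon system were lower than with PSPC1/PTK6. Among the sensors of foreign or misplaced nucleic acid, IFIH1, which encodes MDA5, was at 16.9, 11.2, 6.94, 78.0 and 14.9 FPKM, and RIGI at 6.4, 3.89, 3.72, 26.3 and 6.63. STING1, the adaptor of cytosolic DNA sensing, chosen here after its values were seen, was at 50.9, 74.6, 47.2, 204 and 39.1 FPKM. All were highest with PSPC1/PTK6, and their differences were -2.31, -1.84 and -2.35. Of the factors that carry the signal, STAT2 at -0.38, IRF9 at -0.63 and IRF7 at -0.43 stayed within 2-fold. Among the effector genes, those furthest apart included the following. BST2, which tethers budding virus, was at 12.8, 112, 62.3, 212 and 17.9 FPKM, OAS2, which makes the activator of RNase L, at 10.9, 2.45, 2.05, 55.8 and 5.07, and RSAD2, which encodes viperin, at 4.73, 2.55, 3.12, 54.8 and 5.06. For BST2 the PSPC1 and PSPC1-Y523F libraries also lay above mock, and for OAS2 and RSAD2 they lay below it. The differences were -3.49, -3.22 and -3.20. In the other direction, UBA7 at 0.54 and TRIM25 at 0.55 were the highest of the list, and neither reached 2-fold.

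Interferon genes themselves were read at a low level and were lower in the same direction. IFNL1, IFNL2 and IFNL3, which encode type III interferons and sit next to each other at chr19:39243553-39298673, had 85, 51 and 98 reads with PSPC1/PTK6 and 6, 3 and 5 with PSPC1-Y523F/PTK6. These genes are related in sequence, so the share of reads of each is uncertain. IFNB1, the type I gene, had 42 reads against 1, and was chosen after its values were seen. CXCL10 and CXCL11, chemokines of interferon-treated cells, had 26 and 30 reads against 3 and 2, too few to enter the comparison.

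**Figure D1:**
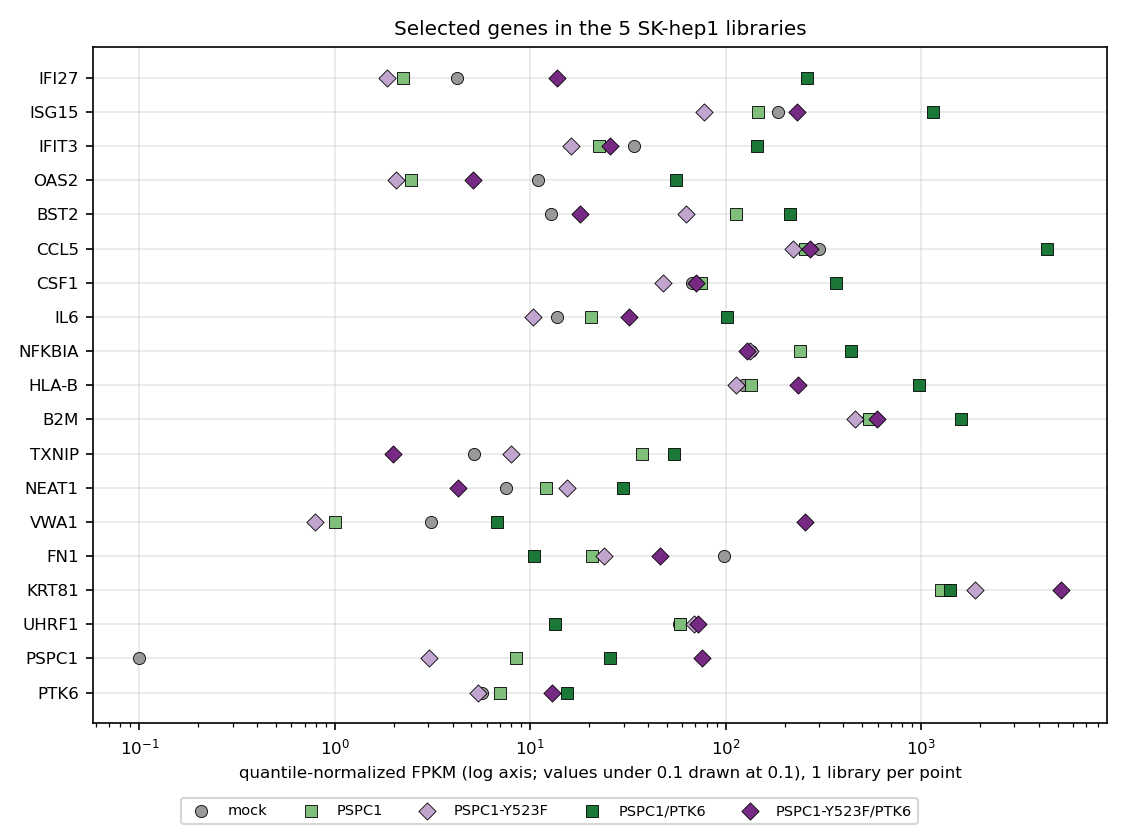
Quantile-normalized FPKM of 19 genes in the 5 SK-hep1 libraries on a log axis, 1 point per library with no error bar since each condition has 1 library. From IFI27 to NEAT1 the PSPC1/PTK6 point is the highest in every row, and VWA1 is high with PSPC1-Y523F/PTK6 alone, at 255 FPKM.

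Genes driven by NF-kB were lower too. Of 24 compared, 23 were lower, against 50.1% of all genes, and 13 were lower by 2-fold or more, against 3.6%, with a median of -1.08. CCL5, a chemokine that draws T cells and also a member of the interferon list, was at 302, 256, 222, 4421 and 270 FPKM, from 115112 reads with PSPC1/PTK6 and 7544 with PSPC1-Y523F/PTK6. SOD2, the mitochondrial superoxide dismutase, was at 37.0, 47.3, 28.5, 408 and 39.0 FPKM. CSF1, the macrophage growth factor, was at 67.4, 75, 47.7, 369 and 70.6 FPKM. As with the interferon genes, PSPC1/PTK6 stood above all 4 others and PSPC1-Y523F/PTK6 lay close to mock, at differences of -4.03, -3.35 and -2.37. Interleukin genes followed, with IL6 at 13.8, 20.5, 10.3, 101 and 31.9 FPKM, and IL1A and IL1B different by -2.06 and -1.53. Of the inhibitors that NF-kB induces against itself, NFKBIA was different by -1.76 and TNFAIP3 by -0.73. The subunit genes NFKB1 and RELB differed by -0.03 and -0.21. IL11, at 0.69, was the only member higher with PSPC1-Y523F/PTK6.

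The promoter of NFKBIA is shown as the example of a kB-type motif, GGG and TTTCC with any 2 bases between, on either strand and in capitals. It lies at chr14:35404700-35404999 of GRCh38.p14 and is printed on the minus strand, the strand of the gene.
NFKBIA: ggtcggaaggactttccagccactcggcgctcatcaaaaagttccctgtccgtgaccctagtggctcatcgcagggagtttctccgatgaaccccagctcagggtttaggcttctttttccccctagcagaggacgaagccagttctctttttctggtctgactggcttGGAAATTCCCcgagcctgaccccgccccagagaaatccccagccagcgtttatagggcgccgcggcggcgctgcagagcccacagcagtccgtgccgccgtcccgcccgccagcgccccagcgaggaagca

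The motif was found at 11 of the 18 listed genes with a RefSeq promoter, or 61.1%, against 2.89% of compared genes. Among the genes at least 2-fold lower it was found at 15 of 297, or 5.05%. That set holds listed NF-kB genes, which raise its share, so nothing is read from it.

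Antigen presentation by MHC class I was the third immune group. All 21 compared members were lower, against 50.1% of all genes, and 5 were at least 2-fold lower, against 3.6%, with a median of -0.57. HLA-B was at 122, 135, 113, 971 and 234 FPKM, and B2M, the shared light chain, at 533, 539, 459, 1592 and 596. HLA-F and HLA-C differed by -2.08 and -1.58, and reads of these genes may be split among near-identical copies. Peptide transport and trimming genes were less far apart, with TAP1 at -0.87, ERAP2 at -0.72 and PSMB9 at -0.44. Members with wider duties in the endoplasmic reticulum, CALR at -0.03 and CANX at -0.57, stayed within 2-fold.

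The PSPC1/PTK6 library was the highest of the 5 SK-hep1 libraries in 57 of the 64 interferon-stimulated genes, in 19 of the 24 NF-kB genes and in 18 of the 21 MHC class I genes, against 25.9% of all genes. Against the mean of mock, PSPC1 and PSPC1-Y523F, the median of the interferon list was 1.59 higher with PSPC1/PTK6 and 0.61 higher with PSPC1-Y523F/PTK6. The same medians were 1.36 and 0.12 for NF-kB genes and 0.77 and 0.34 for MHC class I. The 3 lists share members and hold 107 compared genes, and they account for 46 of the 447 genes that were at least 2-fold lower. More widely, PSPC1/PTK6 lay at least 1.5-fold above all 4 other SK-hep1 libraries in 225 of the 447, or 50.3%, against 3.08% of all genes. PSPC1-Y523F/PTK6 lay as far below the other 4 in 54, against 0.628%. The 447 were chosen by PSPC1-Y523F/PTK6 against PSPC1/PTK6, which sets much of these shares, and nothing is read from them. Blood and immune markers did not move with these lists: PTPRC had 2 reads with PSPC1/PTK6 and 0 with PSPC1-Y523F/PTK6, CD3E and HBB had 0 in both, and CD14 was the higher with PSPC1-Y523F/PTK6.

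Large differences also lay outside these lists. TXNIP, the inhibitor of thioredoxin and of glucose uptake, had the lowest difference of all compared genes, at 5.13, 37.4, 7.99, 54.2 and 1.98 FPKM and a difference of -4.21. ALPG, a placental-type alkaline phosphatase, was at 17, 22.2, 5.56, 31.0 and 1.03 FPKM, a difference of -3.98. Both were also lower with the mutant without PTK6, by -2.10 and -1.82. POSTN, which encodes the matrix protein periostin, had 540 reads with PSPC1/PTK6 and 1 with PSPC1-Y523F/PTK6. IL24, a cytokine of the interleukin-10 family, was at 6.6, 14.6, 7.37, 118 and 9.37 FPKM. PLAU, the urokinase that activates plasminogen, was at 415, 360, 423, 891 and 276 FPKM. For IL24 and PLAU the PSPC1/PTK6 library again lay above the other 4, at differences of -3.52 and -1.69. IL24 was chosen after its values were seen.

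NEAT1, the RNA on which paraspeckles form, was at 7.48, 12, 15.5, 29.8 and 4.26 FPKM. The level was highest with PSPC1/PTK6, lowest with PSPC1-Y523F/PTK6, and different by -2.55, and without PTK6 the mutant was the higher, by 0.34. MALAT1, another nuclear long noncoding RNA on the same chromosome, had the same order at its ends, at 9.04, 17.3, 25, 41.8 and 8.43 FPKM. Among the genes of paraspeckle proteins, the differences were small for NONO at 0.07, HNRNPK at -0.17 and SFPQ at 0.47, and RBM14 was at 0.82. Of 19 compared members of this list, 14 were higher and 5 lower in any degree, with a median of 0.13, and NEAT1 was the 1 member lower past 2-fold.

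A further list was drawn up around the proteins and transcripts of interest in the study, and it is neither complete nor limited to those measured there. Of its 27 genes, 18 were compared, 4 were at least 2-fold higher and 1 lower, against 3.36% and 3.6% of all genes. CCND1, the gene of cyclin D1, was not on it and is listed with the Wnt genes, at 378, 185, 374, 169 and 347 FPKM, a difference of 1.03. CTNNB1, the gene of beta-catenin, was at 172, 160, 140, 170 and 158 FPKM, a difference of -0.10 that turned to 0.23 and 0.28 when counts were scaled by the TMM and median-of-ratios methods. JUP, which encodes gamma-catenin, was at 42.7, 99.9, 37.5, 156 and 60.3 FPKM, a difference of -1.36, with both wild-type PSPC1 libraries above mock and both mutant libraries near it. SNAI2, the EMT factor Slug, showed the opposite order at 17.8, 4.42, 16.1, 5.33 and 15.9 FPKM, a difference of 1.42. FN1, the matrix gene fibronectin, was at 98.5, 20.6, 23.9, 10.5 and 46.3 FPKM, higher by 2.04 with PSPC1-Y523F/PTK6 and still below mock. VIM differed by -0.49, TWIST1 by 0.10, ZEB1 by 0.19, MYC by -0.85, SMAD3 by -0.56 and TGFB1 by 0.58, and the sign of TWIST1 and ZEB1 changed in FPKM as deposited. CDH1 and CDH2, the epithelial and neural cadherins, had at most 4 reads in either library, and NANOG, WNT1, WNT3A and LEF1 had 0.

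Around these, the lists for cell state had medians near 0, and their counts are to be read against 3.36% of all genes higher and 3.6% lower past 2-fold. Of 8 compared EMT transcription factors, 2 were at least 2-fold higher, SNAI2 and TCF4, and 0 lower. Of 34 mesenchymal genes, 4 were higher and 4 lower, with a median of 0.19, and of 25 epithelial genes 4 were higher and 4 lower, with a median of -0.02. Among the epithelial genes furthest from 0, the tight junction genes TJP3 and CLDN4 differed by -1.50 and -1.37, while KRT19 was at 296, 617, 631, 442 and 1097 FPKM, a difference of 1.31. KRT8 took the most reads of any gene with PSPC1-Y523F/PTK6, 1.21% of the library, at a difference of 0.97, and KRT18 differed by 1.17. Of 11 keratin genes compared, 5 were higher and 1 lower past 2-fold. In the Wnt list, 5 of 33 were higher and 2 lower past 2-fold, with a median of 0.24 that was -0.08 in FPKM as deposited. WNT7B, a Wnt ligand gene, was at 0.494, 4.19, 4.34, 0.378 and 9.13 FPKM, a difference of 2.88, and TCF7L2, a partner of beta-catenin on DNA, at 13.9, 13.2, 15.5, 9.88 and 20.8 FPKM, a difference of 1.00. NKD2, a Wnt antagonist, lay on the other side, at 10.0, 4.65, 4.39, 11.1 and 1.12 FPKM, a difference of -2.51.

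Genes of DNA replication and the G1/S transition were higher with PSPC1-Y523F/PTK6. Of 46 compared, 37 were higher, against 49.8% of all genes, and 6 were at least 2-fold higher against 3.36%, with a median of 0.53. UHRF1, which reads hemimethylated DNA and recruits DNMT1 behind the fork, was at 57.7, 58.4, 68.7, 13.3 and 72.1 FPKM. E2F1, the G1/S transcription factor, was at 34.3, 30.2, 50.7, 16.6 and 43.4 FPKM, and MCM5, a subunit of the replicative helicase, at 189, 111, 165, 84.2 and 181. These genes were lowest of the 5 with PSPC1/PTK6, by far for UHRF1, while for MCM5 the PSPC1 library was nearer to PSPC1/PTK6 than to mock. The differences were 2.35, 1.33 and 1.09. PSPC1/PTK6 was the lowest library in 35 of the 46 genes, against 27.6% of all genes, and against the mean of mock, PSPC1 and PSPC1-Y523F the list's median was -0.70 with PSPC1/PTK6 and -0.23 with PSPC1-Y523F/PTK6. Mitotic genes did not share the direction, with 16 of 38 higher, a median of -0.11, and CKS2 at -1.28, TOP2A at -0.77 and MKI67 at 0.80.

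Among the 418 higher genes, PSPC1-Y523F/PTK6 lay at least 1.5-fold above all 4 other SK-hep1 libraries in 117, and PSPC1/PTK6 as far below the other 4 in another count of 117 that shares 6 with the first. The shares of all genes with these patterns were 1.39% and 2.01%. The 418 were chosen by PSPC1-Y523F/PTK6 against PSPC1/PTK6, which sets much of these counts, and nothing is read from them. GTSF1, a germline piRNA pathway gene, had 4 reads with PSPC1/PTK6 and 906 with PSPC1-Y523F/PTK6, and 0 in mock, and it was chosen after its values were seen. CLEC11A, a growth factor gene of bone and blood progenitors, was at 3.29, 75.8, 59.2, 3.59 and 41.9 FPKM, so it was low in mock and in PSPC1/PTK6. MAGEA6, a cancer-testis antigen gene, was at 0.174, 1.48, 1.72, 3.29 and 37.3 FPKM. The metallothionein genes MT2A and MT1E, which bind zinc and copper, were higher by 1.33 and 1.46, with MT2A at 835, 459, 1053, 537 and 1357 FPKM, so that both mutant libraries lay above mock and both wild-type libraries below it. Of 43 compared integrin and focal adhesion genes, 25 were higher and 18 lower, with a median of 0.16. Past 2-fold, 4 were higher and 1 lower, against 3.36% and 3.6% of all genes. Of these, TLN2 and FLNC, which link the actin skeleton to adhesion sites and membranes, differed by 1.58 and 1.08, and ITGA1, an integrin subunit gene, by -1.47. FBN1 and CALD1, the genes of fibrillin and caldesmon, differed by 1.87 and 1.47.

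VWA1, which encodes a matrix protein with a von Willebrand factor A domain, combined a large difference with many reads. It was at 3.12, 1.01, 0.795, 6.76 and 255 FPKM, from 346 reads with PSPC1/PTK6 and 12858 with PSPC1-Y523F/PTK6, a difference of 5.05. Relative to the typical gene its reads were 45.5-fold higher, with a 95% counting interval of 40.9 to 50.8. LINC01770, a noncoding gene that runs the other way and starts 287 bases before the start of VWA1 (chr1:1434861-1442882), had 0 reads in mock, PSPC1 and PSPC1-Y523F, 3 with PSPC1/PTK6 and 705 with PSPC1-Y523F/PTK6, a difference of 5.70. Both genes were highest by far with PSPC1-Y523F/PTK6. Of the 18 other compared genes that reach within 150 kb of the start, 3 were past 2-fold, SCNN1D at -1.29, MXRA8 at 1.05 and AL645728.2 at 2.09. TMEM88B, a neighbour on the side of LINC01770 and chosen after its values were seen, had 16 reads with PSPC1/PTK6 and 0 with PSPC1-Y523F/PTK6. The RefSeq promoters of the pair are printed, VWA1 at chr1:1435440-1435739 on the plus strand and LINC01770 at chr1:1434524-1434823 on the minus strand of GRCh38.p14, as the regions ahead of each annotated start. The RefSeq start of VWA1 lies inside the gene as the files place it. Neither motif above was found in either.
VWA1: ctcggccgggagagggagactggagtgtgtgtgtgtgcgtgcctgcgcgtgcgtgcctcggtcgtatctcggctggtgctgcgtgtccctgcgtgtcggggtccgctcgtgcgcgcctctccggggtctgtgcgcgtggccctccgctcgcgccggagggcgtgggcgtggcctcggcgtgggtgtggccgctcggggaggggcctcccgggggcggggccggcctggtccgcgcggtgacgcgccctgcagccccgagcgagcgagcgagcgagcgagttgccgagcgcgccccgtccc
LINC01770: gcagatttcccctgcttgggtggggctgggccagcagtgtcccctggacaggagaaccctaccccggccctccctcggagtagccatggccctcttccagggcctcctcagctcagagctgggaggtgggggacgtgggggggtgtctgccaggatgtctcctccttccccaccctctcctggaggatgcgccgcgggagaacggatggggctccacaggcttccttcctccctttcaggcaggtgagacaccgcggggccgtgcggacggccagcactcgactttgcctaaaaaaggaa

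Several more differences came in runs of neighbouring genes. There were 18 runs of at least 3 neighbouring compared genes past 2-fold in 1 direction, 8 higher and 10 lower, with 59 genes. Lower runs mostly held members of 1 family, such as GBP1, GBP4 and GBP5 at chr1:89052319-89272804, IFIT1, IFIT2 and IFIT3 at chr10:89283694-89406486, C1R, C1S and C1RL with CLSTN3 at chr12:6988259-7158945, the thrombin receptor family genes F2R, F2RL1 and F2RL2 at chr5:76615482-76835315, and PSG2, PSG5 and PSG7 at chr19:42924132-43186536. F2R, the main thrombin receptor, was at 25.8, 26.0, 18.1, 79.9 and 14.8 FPKM, and C1R, a protease that starts the classical complement pathway, had 299 reads against 13. Higher runs held KRT81, KRT86 and the pseudogene KRT87P at chr12:52249300-52309163, and HOXD9, HOXD10 and HOXD-AS2 at chr2:176108790-176137098. KRT81, a hair keratin gene, was at 1374, 1258, 1893, 1401 and 5192 FPKM. HOXD10 had 19 reads against 191 and HOXD9 15 against 208. The higher runs also included SERHL, RRP7A, SERHL2 and RRP7BP, and MT-ND5, MT-ND6, MT-CYB and MT-TP. Both hold genes of the group of 20 described below, and their medians without PTK6 were -1.21 and -2.96. The PSG, KRT81 and CCL3 families have near-identical copies, among which reads could be split.

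By chromosome, chromosome 17 had the lowest median, -0.19 over 828 genes. Past 2-fold, 52 of its genes were lower and 17 higher, or 6.28% and 2.05%, against 3.6% and 3.36% of all genes. Chromosomes 19 and 1 had 5.05% and 4.95% of their genes lower past 2-fold, at medians of 0.14 and -0.01. Windows of 40 neighbouring genes were taken every 20 genes, so adjacent windows share genes and are not separate segments. Of the 15 lowest of 588 windows, 11 were on chromosome 17. Without the members of the 3 immune lists the median of chromosome 17 was -0.19, and without PTK6 its median was 0.03. Windows over the genome ran from -0.45 to 0.50.

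A group of 20 genes, defined after the values were seen, separated the libraries another way. It held most of the 15 largest positive differences among genes with at least 50 reads in the higher library. On the FPKM plus 1 scale each was 2-fold or more higher in both the PSPC1 and the PSPC1-Y523F/PTK6 libraries than in any of mock, PSPC1-Y523F and PSPC1/PTK6. They included 8 of the 9 compared genes with RRP symbols (RRP1, RRP1B, RRP7A, RRP8, RRP9, RRP12, RRP15 and RRP36, named for ribosomal RNA processing), FTSJ1, METTL25B, and 6 of 16 compared mitochondrial genes (MT-RNR1, MT-RNR2, MT-ND5, MT-ND6, MT-CYB and MT-TP). The rest were SERHL2, AC126768.3, MIR3648-1 and MIR3687-1. With PSPC1-Y523F/PTK6, MIR3648-1 and MIR3687-1 had 19 and 4 reads, and with PSPC1/PTK6 both had 0. RRP12 was at 2.73, 56.7, 4.88, 1.57 and 88.0 FPKM, and MT-CYB at 8.93, 354, 37.4, 11.3 and 335. The 9 RRP genes together had 22.6, 462, 35.9, 19.3 and 593 reads per 1000000 library reads (RPM), and 24.0 to 32.5 in the 3 Mahlavu libraries. A further 39 compared genes were picked by symbol, such as UTP, NOP, NSUN and FTSJ genes of ribosome biogenesis and RNA methylation. They did not follow as a set: 1 of 39, FTSJ1, was among the 20. The remaining 10 mitochondrial genes had 4578, 8422, 17265, 9907 and 5813 RPM, and MT-CO1 and MT-ND2 differed by -1.34 and -1.02. The strand used in counting is not given in the sources used here, so MT-ND6 and MT-TP cannot be told apart from transcripts of the other strand. The 9 RRP genes lie on 7 chromosomes. All 20 were counted among the 418, which left 398 without them. What the PSPC1 and PSPC1-Y523F/PTK6 libraries share that the others lack was not tested, and without PTK6 the same genes lay in the opposite direction. Whether a fault in naming or counting upstream of the values used here plays a part was not tested either. The differences of these genes are therefore given as differences in the values only. The MYC target list holds RRP9 and RRP12, and its median of 0.28 was 0.22 without them.

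**Figure D2:**
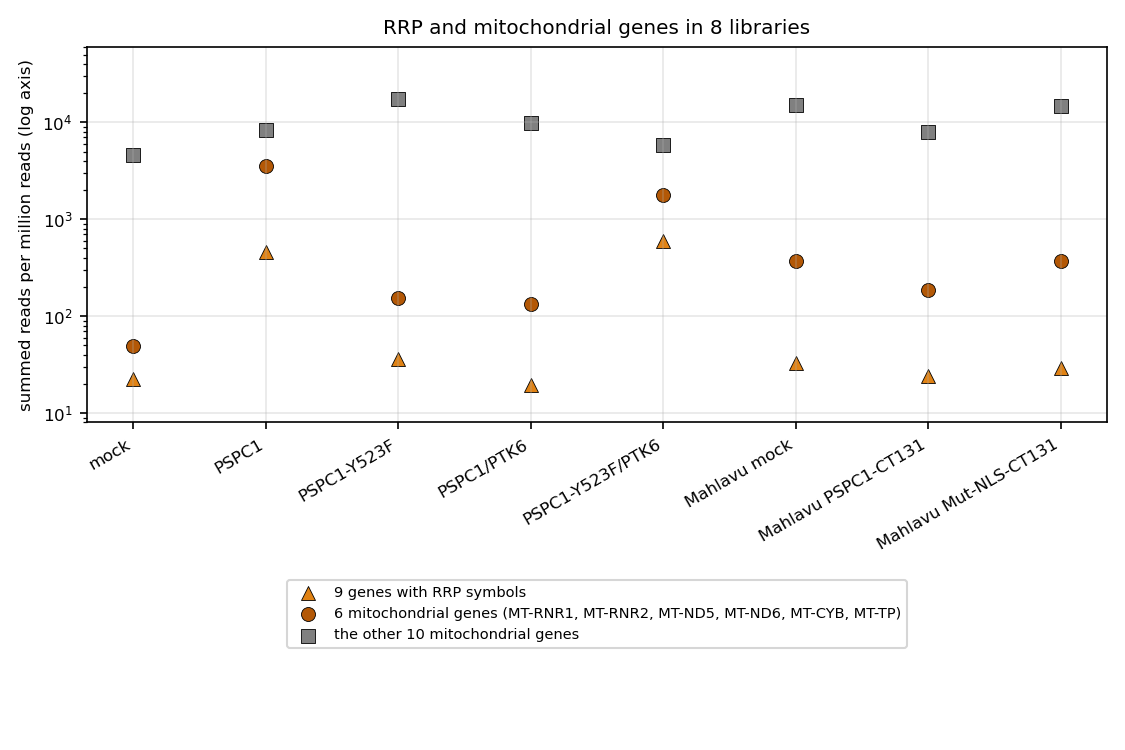
Summed RPM of the 9 RRP genes, of 6 mitochondrial genes and of the other 10 mitochondrial genes in the 8 libraries with counts, on a log axis, 1 library per point. The RRP genes stand at 462 and 593 RPM in the PSPC1 and PSPC1-Y523F/PTK6 libraries and between 19.3 and 35.9 in the other 6.

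The same substitution was also read without PTK6, as PSPC1-Y523F against PSPC1, in 2 libraries that the comparison above does not use. That contrast alone had 1.88% of its genes 2-fold or more higher and 2.37% lower, and over the genes compared with PTK6 the shares were 1.53% and 2.34%. In both contrasts 57 genes were higher, which is 13.6% of those higher with PTK6 and 30% of those higher without, and 65 were lower, which is 14.5% and 22.3%. Of the 447 genes lower with PTK6, 350 were below 0 without it, and of the 418 higher, 296 were above 0 without it. The median of all genes compared was 0.0015 without PTK6. Spearman's rho across genes was 0.40, as a description, since genes are not replicates. In 58 of the 65 genes lower in both, both wild-type PSPC1 libraries lay above mock and both mutant libraries, and in 51 of the 57 higher in both they lay below all 3. The mutant pair lay apart from mock and the wild-type pair in 29 of the 65 and 23 of the 57. The genes were chosen by mutant against wild type, which sets much of these counts, and nothing is read from them. CDC42EP5, a CDC42 effector gene, was at 6.81, 17.2, 2.11, 64.8 and 7.69 FPKM, ATF3, a stress-induced transcription factor, at 21.1, 29.8, 8.78, 27.6 and 9.16, and IL34, a ligand of the CSF1 receptor, at 4.51, 7.37, 1.16, 49.1 and 11.1. Their differences were -2.92, -1.49 and -2.06 with PTK6 and -2.55, -1.66 and -1.95 without. Within each contrast the mutant library lay below its wild-type counterpart, and for CDC42EP5 and ATF3 both mutant libraries lay below both wild-type libraries.

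Lists did not carry over alike. The DNA replication list had a median of 0.53 with PTK6 and 0.59 without, and metallothionein genes, 4 compared, 0.91 and 0.78. NF-kB genes had -1.08 and -0.66, with 13 and 3 genes at least 2-fold lower, and interferon-stimulated genes -0.83 and -0.23, with 29 and 2. Cholesterol synthesis genes had 0.09 with PTK6 and -0.52 without. The difference between the contrasts was not tested. PSPC1 itself moved in opposite directions, 1.53 with PTK6 and -1.23 without.

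**Figure D3:**
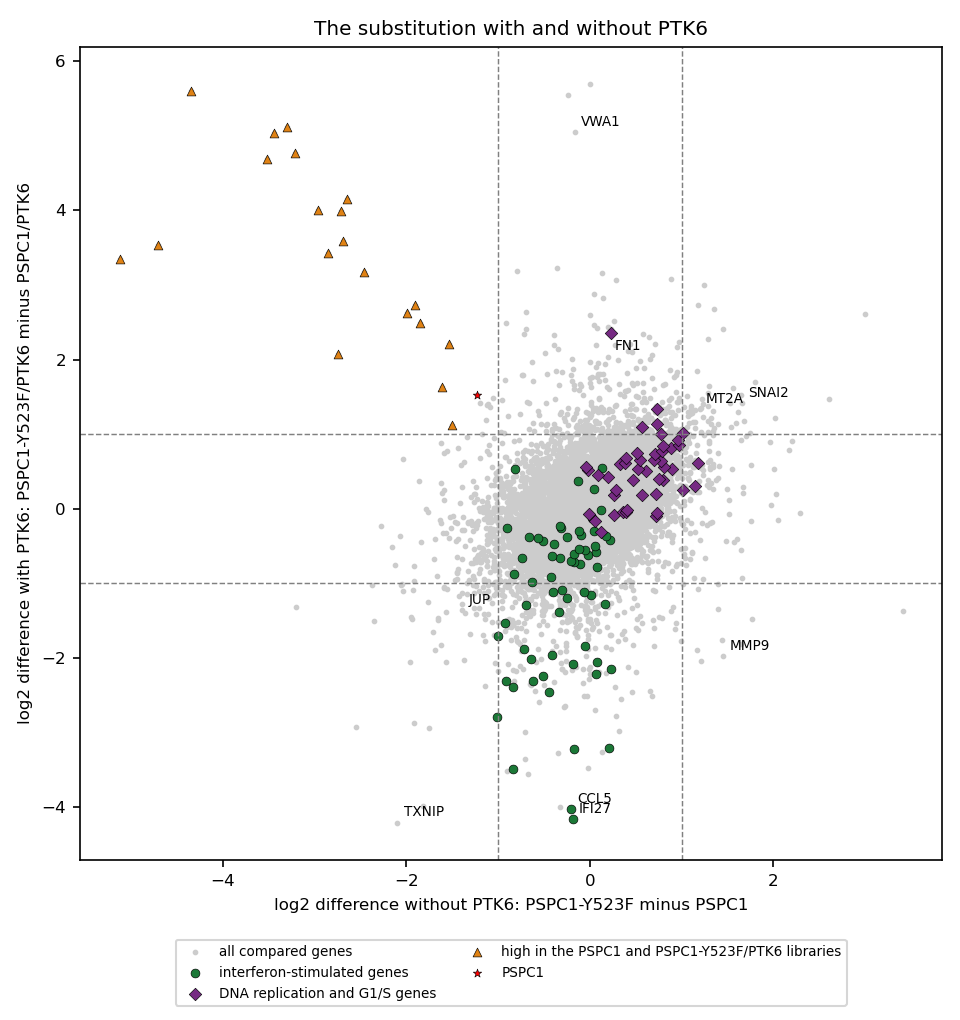
Log2 difference of each compared gene with PTK6 (vertical axis) against that without PTK6 (horizontal axis), with dashed lines at 2-fold and 4 groups in colour. Interferon-stimulated genes spread downward near 0 on the horizontal axis, DNA replication genes lie up and to the right, and the 20 genes high in the PSPC1 and PSPC1-Y523F/PTK6 libraries lie at the upper left, between 1.13 and 5.6 with PTK6 and between -5.12 and -1.50 without.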

How the data were processed

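RNA of SK-hep1, Mahlavu and Huh-7 cells was sequenced, with 1 library per condition. Per the labels, the submitters' processing notes name TopHat2 2.0, HTSeq 0.6.1, edgeR and the build GRCh38.p12. The study's methods name hg18 and rRNA depletion, while the labels name poly-T beads, and the strand used in counting is not given in the sources used here. The authors deposited whole-read counts per gene and FPKM values computed from them for 8 libraries, those of SK-hep1 and of Mahlavu. The 2 Huh-7 libraries, with FPKM only, were not used.

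FPKM values were quantile-normalized over 8 libraries, as the study's methods describe, and log2(FPKM + 1) was subtracted between the libraries. Lines without a value (8) were left out. Counts gave exact binomial 95% intervals of ratios, scaled to the median gene. Counts allowed a count model in principle, but with 1 library a side no test was run. The members and lists were chosen with earlier results of these data known. Named genes were a list drawn up around the study, the 15 largest differences in each direction among genes with at least 50 reads in the higher library, up to 4 per list, the 10 largest in both contrasts, and runs of 3 or more neighbours. Other list members, neighbours of VWA1, MALAT1 and genes outside the lists that the text names were chosen after their values were seen. Alternatives were the pseudocount, the filter, the scaling, the fold, GC content and length, and, added after seeing the data, leaving out the 20 separating genes. Scripts were tested on simulated data. Python 3.11.15, numpy 2.4.6, pandas 2.3.3, scipy 1.17.1, matplotlib 3.10.9, R 4.3.3 and edgeR 4.0.16 (TMM factors) were used. Promoters came from RefSeq, GRCh38.p14.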

Additional observations from a re-analysis of the deposited data

Results flagged for a closer look

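With the mutant, 28 genes were past 2-fold higher with PTK6 and past 2-fold lower without it, and 11 genes were past 2-fold the other way round. The difference between the contrasts was not tested, since each condition has 1 library. Of the 28, 20 were the genes high in the PSPC1 and PSPC1-Y523F/PTK6 libraries, which include the RRP and mitochondrial genes, and 8 were left without them, PSPC1 among them. The 11 included MMP9, a matrix metalloprotease gene, at -1.97 with PTK6 and 1.45 without, and the mitochondrial genes MT-CO1 and MT-ND2.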

How the results depend on the processing

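Every condition had 1 library, so no library could be left out and no spread is known. No paired analysis was possible because each group has 1 library and no test was run. The counts of genes past 2-fold moved with the settings. With a pseudocount of 0.1, 650 genes were higher, and 120 and 153 were higher and lower in both contrasts. With a pseudocount of 5 there were 148 higher, 191 lower, 6 and 15 in both, and 3 DNA replication genes higher. A mean of at least 5 FPKM gave 237 and 274, with 24 and 43 in both. FPKM as deposited gave 206 and 1030, with 26 and 110 in both, and FPKM scaled to the same sum 203 and 1025, with 28 and 103. TMM scaling gave 101 lower in both. At 1.5-fold 1470 were higher and 1401 lower, and at 4-fold 64 and 81. Of called genes, 83.3% were lower in FPKM as deposited, against 51.7%, at a median of all genes of -0.29. Several small list medians changed sign or size: HOX genes to -0.076 (mean of at least 5 FPKM) and -0.17 (both unnormalized FPKM settings), Wnt genes to -0.077 in FPKM as deposited and -0.080 in FPKM scaled to the same sum, RNAs without poly-A tails to -0.056 and -0.059 in these, cytosolic ribosomal proteins to 0.14 (TMM) and 0.19 (median-of-ratios), and, with no filter, proteases and metallothioneins to 0.0018. Of 168 named genes past 2-fold, 105 stayed past it in every one of the 10 settings in which they were compared. The other 63 did not, and 0 changed sign. Some of the 105, such as POSTN and WNT7B, were compared in 9 settings only. In these settings the counts of 29, 13 and 5 lower genes in the 3 immune lists stayed within 1.5 times. Depth limits genes with few reads, such as IFNB1.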
